A study of Mus musculus with 10 samples.

Results

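Metallothioneins, their transcriptional regulator and a set of zinc transporters were followed through the livers of germ-free (GF) mice given microbiota-derived extracellular vesicles (MEV). The members were named by gene symbol, without a threshold on their counts but with earlier results of these data known. They were *Mt1* and *Mt2*, *Mtf1*, the exporters *Slc30a1* and *Slc30a10*, and the importer *Slc39a14*. Of these 6 genes, 5 were found among the 12148 genes of the count table. The expression of *Mt2* was not analysed here. Total RNA of whole liver was sequenced from 5 wild-type GF C57BL/6 mice given MEV (GF+MEV) and 5 wild-type GF C57BL/6 mice given PBS alone (GF+PBS), with 1 library per liver. MEV are membrane vesicles shed by gut bacteria, purified here from the cecal content and stool of donor mice, and 80 µg in PBS was given by mouth, 2 doses per week for 3 weeks. Both groups therefore lacked gut bacteria of their own, and the GF+PBS livers received neither bacteria nor vesicles. The age and sex of the GF mice were not given in the sources used here. The comparison asks which of these genes differed in level between livers with and without MEV exposure.

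Metallothioneins are small cysteine-rich proteins that bind zinc and copper and buffer the free metal of the cell. Free zinc activates MTF-1, the protein of *Mtf1*, which binds metal response elements (MRE) in front of the metallothionein genes and of *Slc30a1*. ZnT proteins (the SLC30 family) move zinc out of the cytosol, and ZIP proteins (the SLC39 family) move it in. The liver is the main organ of metallothionein synthesis, and glucocorticoids and the cytokine IL-6 are also known to raise metallothionein transcripts there. IL-6 is known to raise *Slc39a14* as well.

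The start regions of *Mt1*, *Slc30a1* and *Slc30a10* are shown because they hold the MRE core, the motif through which MTF-1 acts, in 1 gene that rose and 2 that were not called. Each window runs 5′ to 3′ on the strand of the gene, from 250 bases before to 50 bases after the transcript start given by RefSeq for build GRCm38.p6. RefSeq windows were found for 5 of the 6 members, and *Slc39a14* had no entry. Capitals mark each match to the MRE core, TGCACNC or TGCGCNC, searched on both strands. The windows lie at chr8:94178839-94179138 for *Mt1*, at chr1:191906531-191906830 for *Slc30a1* and at chr1:185454598-185454897 for *Slc30a10*, all on the plus strand.
Mt1: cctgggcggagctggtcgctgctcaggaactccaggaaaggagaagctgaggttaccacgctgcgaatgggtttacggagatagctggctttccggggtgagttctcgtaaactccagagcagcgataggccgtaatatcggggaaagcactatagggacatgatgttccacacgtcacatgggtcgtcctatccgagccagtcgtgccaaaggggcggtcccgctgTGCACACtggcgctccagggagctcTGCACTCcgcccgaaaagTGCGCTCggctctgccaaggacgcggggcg
Slc30a1: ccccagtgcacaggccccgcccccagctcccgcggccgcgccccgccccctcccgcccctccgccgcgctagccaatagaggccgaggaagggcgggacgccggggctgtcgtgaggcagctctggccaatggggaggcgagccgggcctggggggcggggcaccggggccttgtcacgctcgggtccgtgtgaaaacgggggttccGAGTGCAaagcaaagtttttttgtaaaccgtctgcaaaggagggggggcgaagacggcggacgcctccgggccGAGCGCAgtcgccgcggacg
Slc30a10: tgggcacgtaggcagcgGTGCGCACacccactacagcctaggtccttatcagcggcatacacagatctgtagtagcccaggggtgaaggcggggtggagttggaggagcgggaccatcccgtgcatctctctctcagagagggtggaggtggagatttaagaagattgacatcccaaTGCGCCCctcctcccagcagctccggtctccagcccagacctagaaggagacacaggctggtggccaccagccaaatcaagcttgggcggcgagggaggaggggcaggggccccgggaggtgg

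The *Mt1* window held 3 MRE cores, at bases -23 to -17, 3 to 9 and 21 to 27 from the RefSeq start used, all on the strand of the gene. Base 1 is the first base of the RefSeq transcript used, and no base is numbered 0. Other transcript starts and bases outside the windows were not searched. Where transcription started in these livers was not measured, so a match after base 1 may lie ahead of another start of the gene. The *Slc30a1* window held 2 MRE cores on the opposite strand, at -43 to -37 and 31 to 37. In *Slc30a10* there were 3 matches, of which those at -233 to -227 and -232 to -226 overlap on opposite strands, and the last lay at -73 to -67. The *Mt2* window held 4 MRE cores and 1 core of the antioxidant response element, but no count of this gene stands beside them. The *Mtf1* window, on chromosome 4 from 124802299 to 124802598, held none. Over the 32851 windows of this length in the table, 25.7% held at least 1 MRE core and 1.97% held 3 or more, so a single match is common. A core of the glucocorticoid response element, ACANNNTGT, was found at -92 to -84 of *Mt1* and in 6.85% of all windows, and in no other member window. A core of the antioxidant response element, TGACNNNGC, was found at -82 to -74 of *Slc30a1*, on the opposite strand, and in 12.4% of all windows. The STAT core TTCNNNGAA, present in 8.30% of all windows, matched no member window. These are matches of letters only, and binding was not measured.

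**Figure D1:**
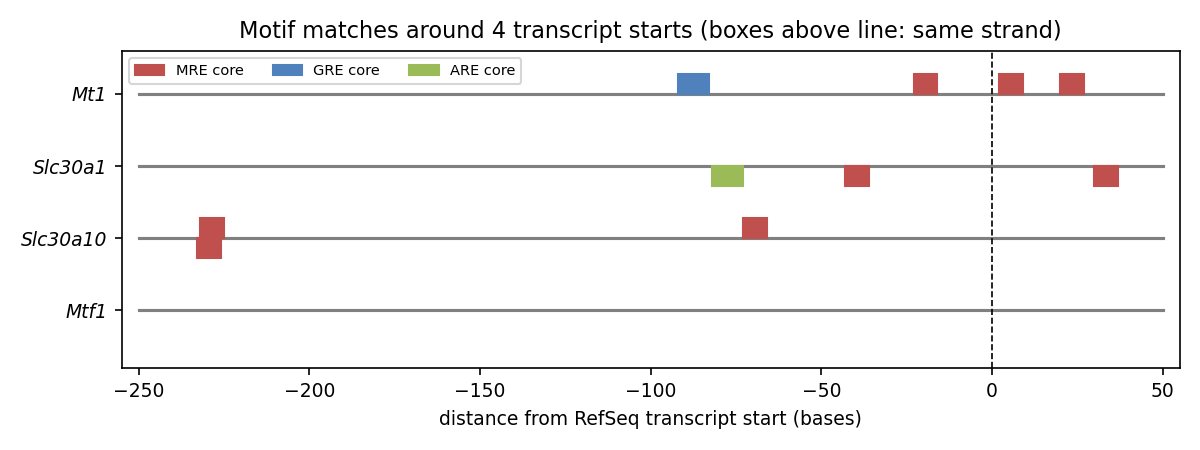
Matches to 3 motif cores in the windows around the transcript starts of 4 members, with distance from the RefSeq start in bases on the horizontal axis and boxes above a line for the strand of the gene, below it for the opposite strand. The *Mt1* window holds 3 MRE cores close to the RefSeq start used and 1 GRE core, while that of *Mtf1* holds no match.

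Each library held between 15746119 and 20523649 counts on genes (median 16770711 in GF+MEV and 17104805 in GF+PBS). Levels are given as CPM, the gene's counts scaled to a common library size with TMM normalization. edgeR's quasi-likelihood test with Benjamini-Hochberg adjustment over 12147 tested genes called 928 genes at an adjusted p under 0.05, which is 7.64% of them. Of these, 500 were higher in GF+MEV (4.12% of tested genes) and 428 were lower. With upper-quartile normalization the called genes were split differently, with 41.2% of them higher in GF+MEV instead of 53.9%. For 898 genes (7.39%) all 5 livers of one group lay above all 5 of the other. GF+MEV replicate 2 stood apart from its group, with a chi-square per gene of 133 to 175 against the 4 other GF+MEV libraries, which differed from each other by 8.14 to 21.3. The tests take each liver as a separate sample. In whole liver, a larger number of cells of one type and more RNA per cell cannot be told apart.

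Among the 5 members tested, 2 rose in GF+MEV livers and none fell. Transcripts of *Mt1*, the metallothionein gene, were 5.8-fold higher, and those of *Slc39a14*, which encodes the importer ZIP14, were 1.65-fold higher. Protein was not measured. *Mtf1*, *Slc30a1* and *Slc30a10* did not pass the test, and their groups overlapped. Thus 2 of 5 members were called, against 7.64% of all tested genes, and the same 2 did not overlap between the groups, against 7.39%. The members were chosen with earlier results of these data known, so these shares are descriptions and no test of the set.

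*Mt1* (ENSMUSG00000031765) lies on the plus strand of chromosome 8 in GRCm38, from 94179082 to 94180327. In GF+MEV livers it stood at 151.6, 322, 276, 246 and 331 CPM in replicates 1 to 5. In GF+PBS livers it stood at 44.3, 66.3, 35.9, 43.7 and 38.4 CPM. The groups did not overlap, and the lowest of the first group, replicate 1, was still 2.29 times the highest of the second, replicate 2. The means were 265 ± 72.4 CPM (SD, n = 5) with MEV and 45.7 ± 12.02 CPM (SD, n = 5) with PBS. The log2 fold change was 2.54, with an adjusted p of 1.4e-06 from edgeR with Benjamini-Hochberg adjustment. limma-voom gave 2.52 with a 95% interval from 2.08 to 2.95. Permuting log2 CPM over livers (exact, two-sided) gave p = 0.00794 (n = 5 per group), the smallest value that its 252 labelings allow. Relative spread was alike in the groups, with a coefficient of variation of 27.3% in GF+MEV and 26.3% in GF+PBS. By size of rise *Mt1* ranked 15 and by p-value 40 among the 12147 tested genes. Its counts ran from 604 to 5717 per library, so counting error was small beside the difference between the groups.

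*Slc39a14* (ENSMUSG00000022094) lies on the minus strand of chromosome 14, from 70303469 to 70351425. Its protein, ZIP14, imports zinc, iron and manganese across the hepatocyte membrane. The GF+MEV livers held 249.1, 240.3, 282, 294 and 263 CPM in replicates 1 to 5, and the GF+PBS livers 136, 203, 147, 149 and 174 CPM. The groups lay apart, but the gap was narrow: the lowest GF+MEV liver was 1.18 times the highest GF+PBS liver. Means were 266 ± 22.5 CPM (SD, n = 5) and 162 ± 27.0 CPM (SD, n = 5). This is a log2 fold change of 0.72, with an adjusted p of 0.00035 (edgeR, Benjamini-Hochberg), and limma-voom gave 0.73 with a 95% interval from 0.52 to 0.94. By exact permutation of the livers, two-sided, p was 0.00794 (n = 5 per group). *Slc39a14* ranked 142 by p-value and 236 by size of rise.

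*Mtf1* (ENSMUSG00000028890, chromosome 4, 124802104 to 124849800, plus strand) encodes the zinc-sensing transcription factor. GF+MEV livers held 14.8, 13.7, 13.4, 15.3 and 13.8 CPM, and GF+PBS livers 10.7, 16.9, 13.99, 14.05 and 13.8 CPM. All GF+MEV values lay inside the range of the GF+PBS livers, whose replicate 1 was the lowest and replicate 2 the highest of all 10. The log2 fold change was 0.03 with an adjusted p of 0.91 (edgeR, Benjamini-Hochberg), and the 95% interval of limma-voom ran from -0.18 to 0.27. By exact permutation of the livers, two-sided, p was 0.722 (n = 5 per group).

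*Slc30a1* (ENSMUSG00000037434, chromosome 1, 191906767 to 191913247, plus strand) encodes ZnT1, the zinc exporter of the plasma membrane and, like *Mt1*, a target of MTF-1. Its level was 28.5, 25.7, 29.5, 32.5 and 33.1 CPM in GF+MEV and 26.2, 37.5, 30.8, 27.9 and 31.6 CPM in GF+PBS. The groups overlapped, with the highest value in GF+PBS replicate 2 and the lowest in GF+MEV replicate 2. The log2 fold change was -0.04 with an adjusted p of 0.86 (edgeR, Benjamini-Hochberg), and the 95% interval of limma-voom from -0.25 to 0.17 lies far below the lower bound for *Mt1*. By exact permutation of the livers, two-sided, p was 0.746 (n = 5 per group).

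*Slc30a10* (ENSMUSG00000026614, chromosome 1, 185454848 to 185468762, plus strand) belongs to the zinc exporter family by sequence, and its protein exports manganese. GF+MEV livers held 25.3, 20.8, 22.4, 23.1 and 25.3 CPM, and GF+PBS livers 31.8, 24.2, 31.5, 21.02 and 24.8 CPM. GF+PBS replicates 1 and 3 were above every other liver, and the remaining 3 lay in the range of the GF+MEV livers. The log2 fold change was -0.19 with an adjusted p of 0.36 (edgeR, Benjamini-Hochberg), with a 95% interval of limma-voom from -0.41 to 0.07. By exact permutation of the livers, two-sided, p was 0.238 (n = 5 per group).

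**Figure D2:**
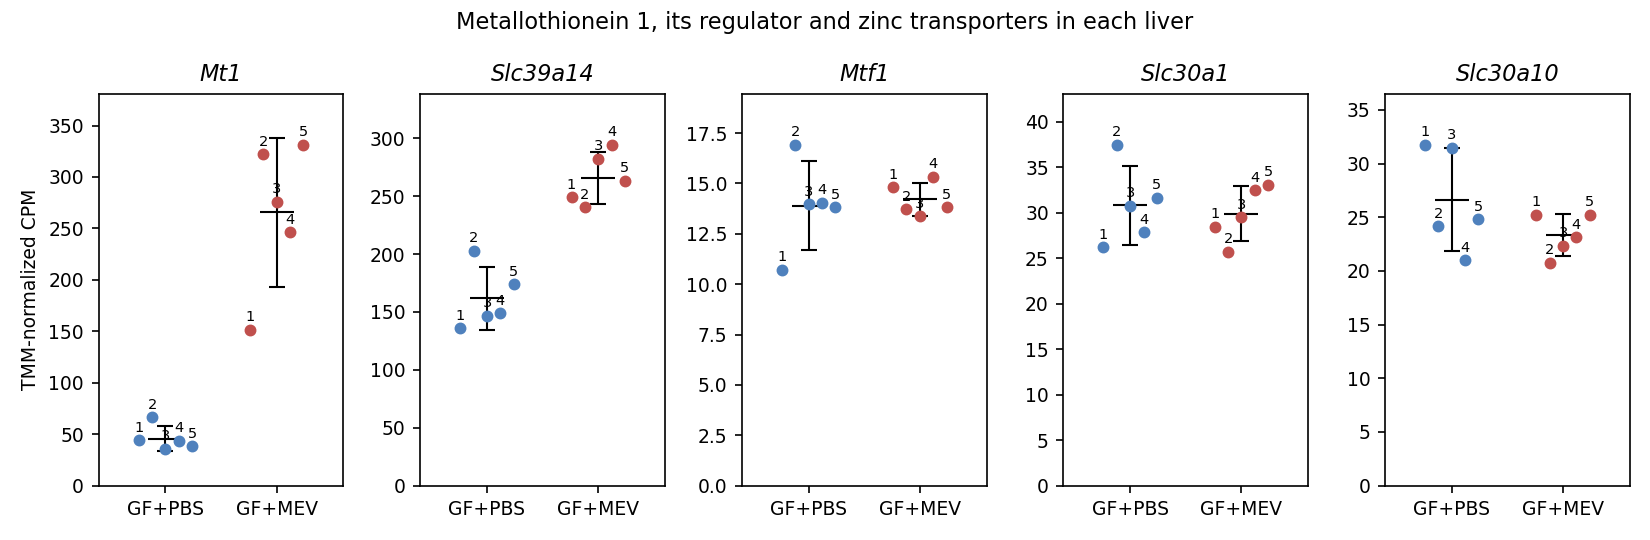
TMM-normalized CPM of the 5 members in each liver, 1 panel per gene with its own vertical axis from 0, points numbered by replicate, with the mean and SD of 5 livers per group. *Mt1* and *Slc39a14* lie apart between the groups, and the 3 other genes overlap.

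GF+PBS replicate 2 had the highest value of its group in 4 of the 5 members, *Mt1*, *Slc39a14*, *Mtf1* and *Slc30a1*. Without it the log2 fold changes of *Mt1* and *Slc39a14* were 2.71 and 0.81, and both genes were still called. Without GF+MEV replicate 2, the library that stood apart, they were 2.46 and 0.76, with both genes called, and *Mtf1* had 0.05, *Slc30a1* 0.01 and *Slc30a10* -0.15, with none of these called. Reads of a member could be shared with another gene at some loci. *Mtf1* overlaps 1110065P20Rik by 721 exonic bases, *Slc30a1* overlaps 1700034H15Rik by 468 and *Slc30a10* overlaps Gm2061 by 533, each on the other strand. Whether the counting used the strand was not given in the sources used here, so reads from such a pair cannot be told apart. *Mt1* and *Slc39a14*, the genes that rose, have no exonic overlap, and 0% and 0.196% of their 50-base windows occur in another transcript.

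Ratios taken within a liver do not depend on its library size. They are given as log2 ratios of CPM, whose own level depends on gene length, so that only their difference between the groups is read, and as a description without a test. *Mt1* over *Slc30a1*, both reported targets of MTF-1, was 2.41 to 3.65 in GF+MEV livers and 0.22 to 0.82 in GF+PBS livers, and the means differed by 2.56. *Mt1* over *Mtf1* was higher by 2.47 in GF+MEV and *Mt1* over *Slc30a10* by 2.7, again with no overlap. *Mt1* also rose by more than *Slc39a14* within the livers. Their ratio was -0.72 to 0.42 in GF+MEV and -2.18 to -1.61 in GF+PBS, a difference of 1.79 between the means.

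The ratios of both exporters to the importer *Slc39a14* were lower in every GF+MEV liver than in any GF+PBS liver. Neither exporter was called by itself, with log2 fold changes of -0.04 for *Slc30a1* and -0.19 for *Slc30a10*, beside 0.72 for *Slc39a14*. *Slc30a1* over *Slc39a14* was -3.26 to -2.99 in GF+MEV and -2.46 to -2.25 in GF+PBS, and *Slc30a10* over *Slc39a14* was -3.67 to -3.30 and -3.07 to -2.10. The differences were -0.77 and -0.90 with no overlap, and that of *Mtf1* over *Slc39a14* was -0.68, also with no overlap. The 3 ratios among *Mtf1*, *Slc30a1* and *Slc30a10* overlapped, with differences of 0.08 to 0.22. In all, 7 of the 10 pairs did not overlap between the groups, and these are the pairs that hold *Mt1* or *Slc39a14*, so the count adds nothing to the values of those genes.

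**Figure D3:**
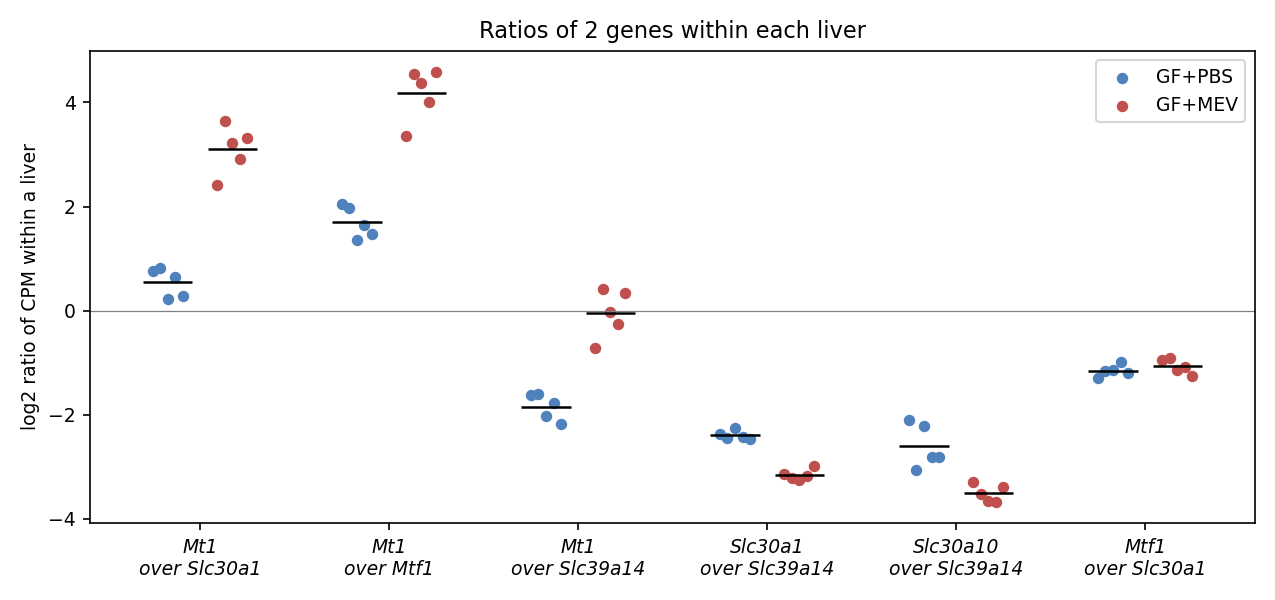
Log2 ratios of the CPM of 2 members within each liver, as points for 5 GF+PBS and 5 GF+MEV livers with the group mean as a line. The 3 ratios with *Mt1* are higher and the ratios of an exporter over *Slc39a14* lower in every GF+MEV liver, and *Mtf1* over *Slc30a1* overlaps.

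After each group's mean was removed, *Slc39a14* varied over the 10 livers most like *Slc30a1* among the members, with a Pearson r of log2 CPM of 0.87. For *Mtf1* the r was 0.74 with *Slc39a14* and 0.73 with *Slc30a1*. *Mt1* had an r of 0.39 with *Slc39a14*, 0.33 with *Slc30a1* and -0.35 with *Slc30a10*. These values are descriptions over libraries that share their normalization. By the same measure over 11829 genes of at least 1 CPM, the genes most like *Mt1* were *Vim* (r = 0.94), *Lrrc61* (0.92) and *Cyp2g1* (0.90). For *Slc39a14* they were *Ralgapb* (0.96), *Asxl1* (0.96) and *Larp4b* (0.95), and for *Mtf1* they were *Ikbkb* (0.96), *Zfp446* (0.94) and *Tesk2* (0.93). The closest to *Slc30a1* were *March6* (0.96), *Deptor* (0.96) and *Zfp266* (0.95), and to *Slc30a10* *Gm34654* (0.97), *Gla* (0.94) and *Mrpl3* (0.94). Each is the highest of many values over few livers and carries no test.

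Over the whole family of metallothioneins, ZnT and ZIP genes, 19 of 28 listed genes were tested, and *Mt1* and *Slc39a14* were the genes called, a share close to the 7.64% of all tested genes. None was lower, 17 did not pass the test, and the median log2 fold change was 0.01, against -0.0037 over all tested genes. *Mt3* and *Mt4*, metallothioneins of brain and stratified epithelium, were not tested, nor were *Slc30a2*, *Slc30a3*, *Slc30a8*, *Slc39a2*, *Slc39a7* and *Slc39a12*. The 7 ZnT genes tested had log2 fold changes of -0.19 to 0.19, with a median of -0.04 and no call. The 11 ZIP genes had values of -0.41 to 0.72, with a median of 0.01 and 1 call, *Slc39a14*.

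Among the family genes not called, *Slc30a5*, *Slc39a4* and *Slc30a6* had the lowest adjusted p-values. *Slc30a5* and *Slc30a6*, which encode the ZnT5 and ZnT6 subunits that load zinc into enzymes of the secretory pathway, were lower in each GF+MEV liver than in any GF+PBS liver. *Slc30a5* was 27.0 to 30.6 CPM (median 29.6) in GF+MEV and 31.1 to 34.9 CPM (median 33.2) in GF+PBS, a log2 fold change of -0.17 with an adjusted p of 0.098 (edgeR, Benjamini-Hochberg). *Slc30a6* was 10.7 to 12.4 CPM (median 11.9) in GF+MEV and 12.7 to 14.4 CPM (median 13.3) in GF+PBS, a log2 fold change of -0.19 with an adjusted p of 0.18. Groups that do not overlap are seen in 7.39% of all tested genes. *Slc39a4*, whose protein ZIP4 takes up zinc from food in the intestine, was 78.8 to 109.6 CPM in GF+MEV and 80.9 to 88.9 CPM in GF+PBS, a log2 fold change of 0.23 with an adjusted p of 0.11. GF+MEV replicate 4 was its lowest liver, and the 4 others were above every GF+PBS liver. Without that liver *Slc39a4* was called, with an adjusted p of 0.007 (edgeR, Benjamini-Hochberg).

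For the other ZIP genes the log2 fold changes were small. *Slc39a8*, whose protein ZIP8 also carries manganese, was 22.1 to 28.5 CPM in GF+MEV and 23.4 to 30.2 CPM in GF+PBS (log2 fold change -0.02, adjusted p = 0.92 by edgeR with Benjamini-Hochberg adjustment). Its highest GF+PBS values were in replicates 1 and 3, as for *Slc30a10*. *Slc39a1* had a log2 fold change of -0.04, *Slc39a3* of -0.17, *Slc39a6* of 0.06, *Slc39a9* of 0.01, *Slc39a11* of 0.01 and *Slc39a13* of 0.07. *Slc39a5* had the lowest value, -0.41, with a 95% interval of limma-voom from -0.95 to 0.19 at a mean of 1.99 CPM in GF+MEV and 2.61 CPM in GF+PBS, so its level was known less closely. *Slc39a10*, a gene that MTF-1 is reported to repress, had a log2 fold change of -0.06 with an interval from -0.53 to 0.40. Of the other ZnT genes, *Slc30a4* had 0.19, *Slc30a7* 0.06 and *Slc30a9* 0.02. Exons of *Slc39a9* and *Slc39a13* overlap the genes *Erh* and *Psmc3*, by 459 and 215 bases.

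**Figure D4:**
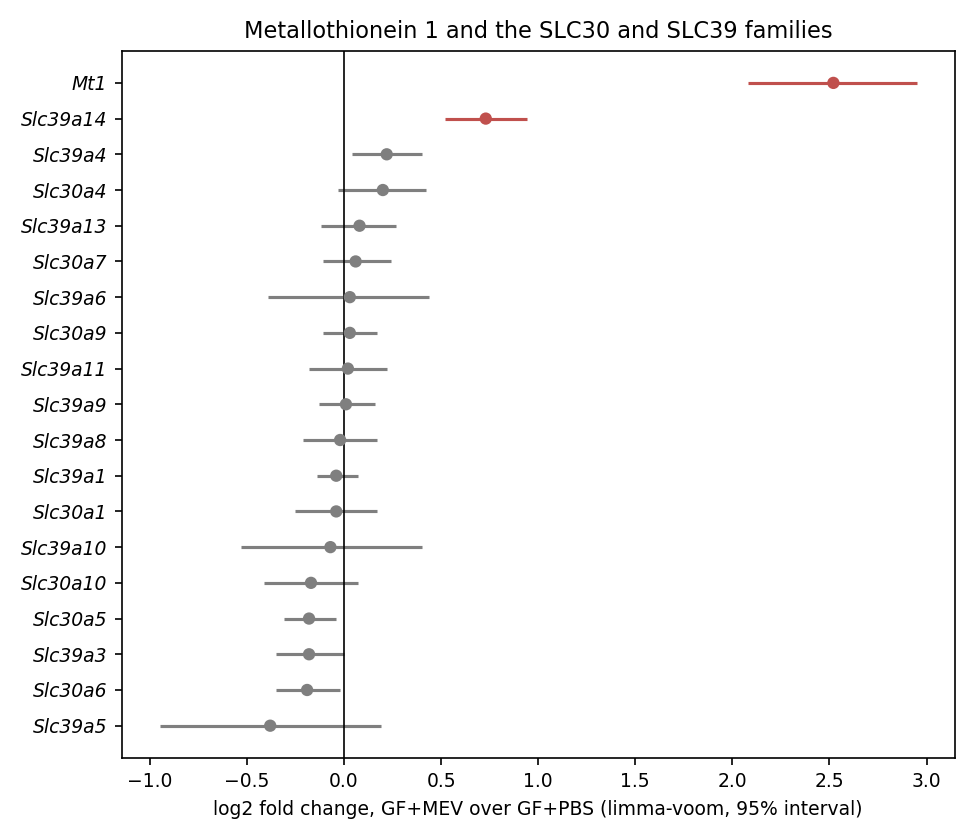
Log2 fold change of GF+MEV over GF+PBS with the 95% interval of limma-voom for *Mt1* and 18 SLC30 and SLC39 genes, in red where edgeR called the gene. *Mt1* and *Slc39a14* are the 2 genes in red, and the other 17 lie between -0.38 and 0.22.

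Levels of different genes were compared per kilobase of annotated exon. The annotated exons of *Mt1* cover its whole span of 1246 bases, so a shorter spliced transcript would give it a higher level per kb. In GF+PBS livers *Mt1* was the highest of the 20 genes (the family and *Mtf1*) at a mean of 36.7 CPM per kb (28.8 to 53.2). That range includes the range of *Slc39a1* (mean 34.2, from 33.3 to 35.4), so the order of those genes is not settled with these lengths. *Slc39a4* followed at 27.3 and *Slc39a14* at 15.3 CPM per kb. *Slc30a1* stood at 5.87 (5.0 to 7.15), *Slc30a10* at 4.57 (3.6 to 5.44) and *Mtf1* at 1.56 (1.2 to 1.9), of which the first pair overlap. In GF+MEV livers *Mt1* stood at 213 CPM per kb (122 to 266), above every other gene in every liver. *Slc39a14* reached 25.2 (22.8 to 27.9), which overlaps the range of *Slc39a4* in that group. *Slc30a1* at 5.70 (4.91 to 6.31) and *Slc30a10* at 4.0 (3.56 to 4.33) did not overlap in that group, and *Mtf1* was at 1.6 (1.5 to 1.72). At the low end in GF+PBS livers, *Slc39a10* and *Slc39a6* had means of 0.456 and 0.372 CPM per kb.

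**Figure D5:**
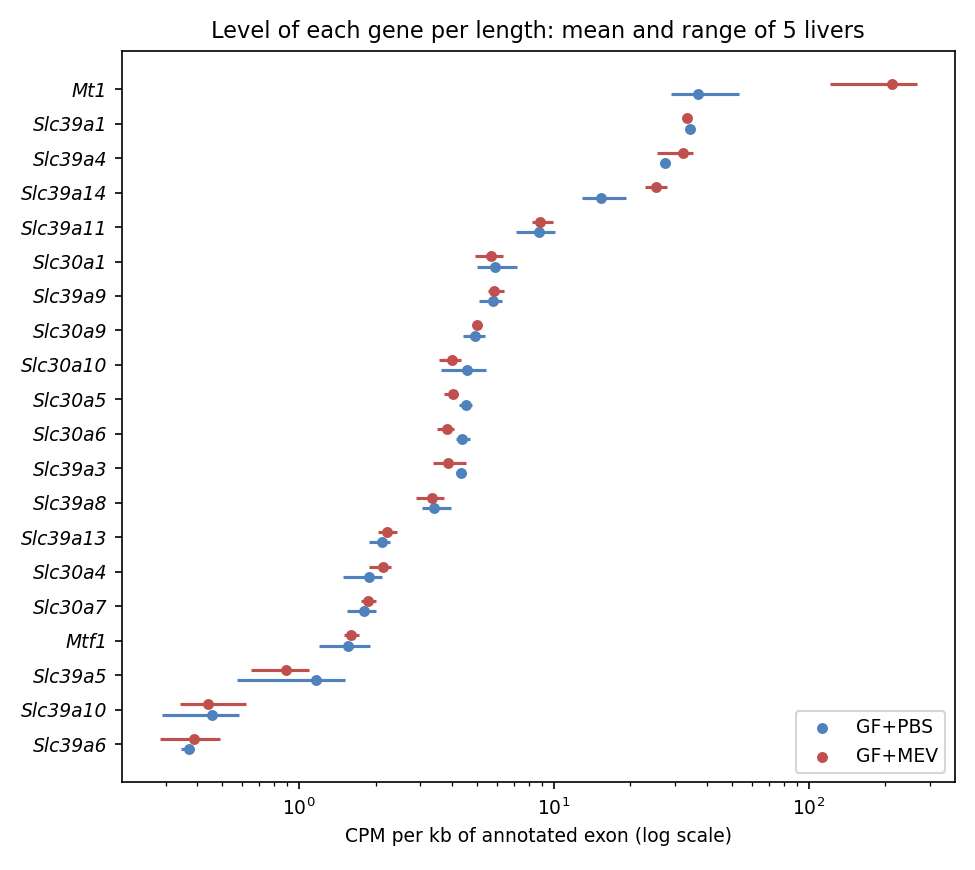
Mean and range of CPM per kilobase of annotated exon on a log axis for *Mtf1* and the 19 family genes, 5 GF+PBS and 5 GF+MEV livers each. *Mt1* shifts from 36.7 to 213 and *Slc39a14* from 15.3 to 25.2, and the ranges of the other genes overlap between the groups, except those of *Slc30a5* and *Slc30a6*.

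Other genes of the pathway were read from lists. None of 6 reported MTF-1 targets outside the members was called, and their median log2 fold change was -0.26. The share called over all tested genes was 7.64%, so few or no calls are usual in lists as short as those of this paragraph. *Gclc*, which makes the precursor of glutathione, had -0.26 (adjusted p = 0.19), the redox protein gene *Selenoh* had -0.27 (adjusted p = 0.15) and the iron exporter gene *Slc40a1* had -0.32 (adjusted p = 0.22), all from edgeR with Benjamini-Hochberg adjustment. Of the 3 others, *Ndrg1* had -0.26, *Csrp1* 0.06 and *Slc39a10* -0.06. Since MTF-1 is reported to repress *Slc39a10*, the list mixes directions and its median is not a measure of MTF-1 activity. *Selenoh* was 6.62 to 8.17 CPM in GF+MEV and 8.23 to 10.9 CPM in GF+PBS, without overlap. Groups lay apart in this way, in either direction, for 7.39% of all tested genes. Of 9 genes of copper handling none was called (median -0.11). Of 6 genes of manganese handling *Arg1*, the manganese-dependent arginase, was called, at 1397 CPM in GF+MEV and 1125 CPM in GF+PBS (log2 fold change 0.31, adjusted p = 0.011 by edgeR with Benjamini-Hochberg adjustment), and the median was 0.01.

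Lists of hormone, cytokine and redox targets were read beside *Mt1* because metallothionein transcription is known to respond to each. Of 8 glucocorticoid responsive genes 7 rose and the receptor gene *Nr3c1* had a log2 fold change of 0.05 (adjusted p = 0.78, edgeR, Benjamini-Hochberg). Over all tested genes 4.12% were called higher and 7.64% in either direction. All lists were chosen with earlier results of these data known, so the counts called in them are descriptions without a test. The median of the list was 1.81. Its largest rises were *Ddit4*, an inhibitor of mTORC1 (log2 fold change 3.98), *Zbtb16*, a transcription factor (3.30), *Tat*, tyrosine aminotransferase (2.10), and *Tsc22d3*, which encodes GILZ (1.93). *Per1* also rose (1.69), and the paper reads it as a gene of the circadian clock, a pathway it reports enriched with MEV. Of 11 acute phase and STAT3 genes tested 1 rose, the haemoglobin scavenger *Hp* (0.31, adjusted p = 0.011), and 2 fell, the cytokine signal inhibitor *Socs3* (-1.18, adjusted p = 0.00028) and hepcidin *Hamp* (-0.44, adjusted p = 0.036), by edgeR with Benjamini-Hochberg adjustment. The median of that list was 0.05. From a pathway analysis of these livers, the paper reports that IL-6 and acute phase response signalling were enriched with MEV. The genes its text names for those pathways are not on this list, which does not repeat that analysis. Of 6 NRF2 targets tested *Nqo1*, a quinone reductase, fell (-0.51, adjusted p = 0.023, edgeR, Benjamini-Hochberg), none rose, and the median was -0.17. The part of any of these pathways in the level of *Mt1* or *Slc39a14* was not tested.

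The liver label was checked against marker lists, whose summed CPM is given as the range over livers. Hepatocyte markers summed to 83877 to 102550 in GF+MEV and 87751 to 103650 in GF+PBS, with *Hnf4a* (log2 fold change 0.45) and *Cps1* (0.38) called higher among 5. The sums of Kupffer cell markers (101 to 180.2 and 112 to 146, none of 5 called) and of stellate cell markers (124 to 158 and 132 to 156, none of 5 called) overlapped. Liver endothelial markers summed to 83.8 to 135 and 103 to 137, with *Lyve1* higher (0.84) and *Clec4g* lower (-0.48) among 5. Cholangiocyte markers summed to 28.1 to 79.3 in GF+MEV and 23.2 to 29.7 in GF+PBS, with *Krt19* called higher (3.87) among the 3 tested, while *Krt7* and *Epcam* were not tested. *Krt19* was low in GF+PBS, at 0.30 to 0.78 CPM, and spread widely in GF+MEV, from 0.96 to 16.8 CPM. The other two were not called, with *Spp1* at 0.52 and *Sox9* at -0.98. Leukocyte markers summed to 5.86 to 13.4 and 9.55 to 13.3, with *Cd79a* called lower (-0.87) among the 3 tested. Erythroid markers (231 to 360.1 and 260.2 to 437) and skeletal muscle markers (190.4 to 260.4 and 164 to 562) gave no call among 3 tested each. The share called over all tested genes was 7.64%. The part of these cell types in the values of the members was not tested.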

How the data were processed

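Liver RNA of 5 GF+MEV and 5 GF+PBS mice was analysed. Libraries were made from total RNA with the NEBNext Ultra kit. The authors used STAR 2.7.3a to align reads to GRCm38 (bcl2fastq 2.17 is also named in the submitters' processing notes), counted them per gene with HTSeq (version not given in the sources used here) and removed genes with fewer than 20 counts across samples. The values they deposited are raw counts under Ensembl identifiers. A further 5 columns matched no described sample and were not used.

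Symbols and positions came from GENCODE M21, with no symbol for 10 genes. Genes with at least 20 counts over the 10 livers were tested with edgeR 4.0.16 (R 4.3.3, TMM, quasi-likelihood, treatment alone) and Benjamini-Hochberg adjustment at 0.05. Intervals came from limma-voom (limma 3.58.1). Permutation tests of log2 CPM added an offset of 0.1 CPM, and likeness used a prior count of 2. The fits were tested on simulated data. Alternatives were DESeq2 1.42.0, limma-voom, RLE and upper-quartile factors, a minimum of 10 counts in every library or none, a replicate block, alike GF+PBS livers summed, and each liver left out.

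Named were all members, all family genes, at most 4 called genes per other list by size of change, and the 3 genes most like each member. The MTF-1 targets, *Nr3c1*, *Per1*, *Krt7*, *Epcam*, *Spp1* and *Sox9* were added once their values were known. The members and lists were chosen with earlier results of these data known. Expression of *Mt2* was not analysed here. Libraries of a group differed beyond counting error in all 20 pairs (chi-square per gene of at least 6.33). The labels do not say whether the mice shared a cage or litter. The p-values set the difference between the groups against the spread between these livers. If cage or litter followed treatment, its effect could not be told apart from that of MEV.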

Additional observations from a re-analysis of the deposited data

Results flagged for a closer look

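*Mt1* stood at 66.3 CPM in GF+PBS replicate 2, apart from the other 4 livers of its group. Its gap to the next liver was 0.724 of the group's range, against a critical value of 0.71 (Dixon's ratio for 5 values). GF+MEV replicate 2 had a TMM factor of 0.890, also apart from its group with a ratio of 0.734. In all, 14 groups of values were checked in this way, and chance alone singles out about 1 in 20.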

How the results depend on the processing

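Across 18 alternatives, *Mt1* kept its direction and its call, with log2 fold changes of 2.45 to 2.71 and adjusted p up to 1e-04, and so did *Slc39a14*, with 0.66 to 0.81 and adjusted p up to 0.0038. *Slc30a10* ran from -0.26 to -0.12 and was never called (adjusted p 0.17 to 0.62). *Mtf1* and *Slc30a1* were not called in any and changed sign in some. *Mtf1* was -0.01 with upper-quartile factors and -0.05 without GF+PBS replicate 1, within a range of -0.05 to 0.11 with 1 liver left out. *Slc30a1* was 0.01 without GF+MEV replicate 2 and 0.04 without GF+PBS replicate 2, within a range of -0.10 to 0.04. The cause was not tested. The count of family genes called was 2 or 3, the third being *Slc30a5* with upper-quartile factors (adjusted p = 0.038) or *Slc39a4* without GF+MEV replicate 4 (adjusted p = 0.007).

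Counts over all genes were added to the alternatives after the data were seen. In all 928 were called, 1201 by DESeq2, 696 to 926 with 1 liver left out, and 561 with GF+PBS replicates 1 and 3, and 4 and 5, summed, which leaves fewer samples. Replicate numbers in the labels did not pair the livers: deviations of same-numbered livers correlated at -0.12 to 0.18 over 500 genes, and 2 of 5 livers matched their own number best. The replicate block called 792 genes and left the call of every member as it was. The ratio of *Mt1* to *Mt2* was not run, since the expression of *Mt2* was not analysed here. With 5 livers per group, the intervals of *Mtf1*, *Slc30a1* and *Slc30a10* still include changes of up to 0.27, 0.25 and 0.41 in size on the log2 scale.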
